A study of Homo sapiens with 40 samples.

Results

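A set of 6 genes was examined that carry, assist or restrain signalling by the aryl hydrocarbon receptor (AhR), the ligand-activated transcription factor that binds dioxin-like chemicals. They were the receptor itself (AHR), its nuclear partners ARNT and ARNT2, the co-chaperone PTGES3 (p23), and the feedback regulators TIPARP and AHRR. They were picked out by gene symbol, with earlier results of these data known but no cut on any measured value. They make up 6 of the 56568 gene names in the deposited tables. Abundances in FPKM, the fragments assigned to a transcript scaled to its length and to the library's size, were summed over all transcripts carrying a gene's symbol, so that levels are per length and can be set side by side between genes. No member was at 0 in any of the 40 libraries.

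The cells were HepaRG, an established human hepatic line that, once differentiated, holds hepatocyte-like colonies beside primitive biliary cells. From day 8 to day 14 all cultures were kept in a medium with 2% FBS and 1% DMSO. There were 8 groups of 5 libraries. One group received solvent only (control), 3 received PCB 126, a coplanar polychlorinated biphenyl, at 100 pM, 10 nM or 1 µM, 3 received glyphosate at 10 µg/L, 1 mg/L or 0.1 g/L, and 1 received Roundup, a glyphosate-based herbicide formulation, at 10 µg/L. The PCB 126 and herbicide comparisons used the same 5 control libraries. The library numbers form 5 runs, each with 1 library of every group, and the labels do not say what a run is. All libraries came from a single cell line, and nothing in the labels states that the 5 libraries of a group were separate cultures, so p-values measure the spread between these libraries, which may be technical.

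In its resting state AhR sits in the cytosol in a complex with HSP90 and co-chaperones such as p23. After binding a ligand it enters the nucleus, pairs with ARNT or its close relative ARNT2, and binds DNA at dioxin-responsive elements, whose core is GCGTG. Among the genes it switches on in liver are the CYP1 enzymes and 2 of its own brakes, namely AHRR, a related protein that competes for ARNT and represses transcription, and TIPARP (also called PARP7), a mono-ADP-ribosyltransferase that modifies AhR and lowers its activity.

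The letters of this core near the first base of the feedback genes are shown here because TIPARP went with dose below and AHRR is the other feedback gene. Of the 35116 RefSeq windows of 250 bases before a gene start (assembly GRCh38.p14, 27305 gene symbols), 32.2% held at least 1 copy of GCGTG on either strand, read as GCGTG or CACGC, and 4.52% held the longer TNGCGTG. For 5 of the 6 members a window was matched. The AHR and ARNT windows held no copy, the PTGES3 window held 1, the first AHRR window held 1 that also matched TNGCGTG, and a second AHRR window (chr5:322360-322609) held 2. Of 3 TIPARP windows, 1 held 2 copies and 2 held none. The shares above are per window, and a gene with several windows has more chances of a match. A letter match is a description of the sequence and does not show binding. The first AHRR window (chr5:321464-321713, plus strand) and the pair of 29-base stretches around the TIPARP copies (plus strand, 208 and 142 bases before the first base at 156674590 on chromosome 3) follow, with the core in capitals.
AHRR chr5:321464-321713: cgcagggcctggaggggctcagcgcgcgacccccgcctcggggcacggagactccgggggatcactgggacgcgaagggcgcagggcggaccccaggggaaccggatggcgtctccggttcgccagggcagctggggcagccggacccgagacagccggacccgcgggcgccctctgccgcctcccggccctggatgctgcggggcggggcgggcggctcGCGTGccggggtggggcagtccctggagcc
TIPARP chr3:156674370-156674398: cgcgagaaaggaCACGCcccctcgcggga
TIPARP chr3:156674436-156674464: cgaacgaacgcgCACGCgcgcgcaggggg

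Libraries differed in quality. Transcripts above 0 FPKM numbered 71169 to 118592 per library, and read totals are not in the tables. The study's alignment summary names 38 of the 40 libraries, and in 9 of them over 30% of read pairs aligned to several places: control replicate 5, replicates 3 and 5 of 10 nM PCB 126, replicates 1 and 5 of 1 µM, replicate 5 of glyphosate 10 µg/L, replicate 2 of glyphosate 0.1 g/L, and replicates 4 and 5 of Roundup. These 9 libraries held the lowest levels of both abundant members. Their AHR levels lay between 11.5 and 42.7 FPKM, against 50.7 to 84.5 FPKM in the other 31 libraries, and their PTGES3 levels between 27.1 and 53.0 FPKM against 62.3 to 98.7 FPKM. Results that rest on these libraries are therefore given with and without them. All 10 hepatocyte markers listed were detected in every group, with a median of at least 1 FPKM. Their summed level had a median of 21160 FPKM in control (14614 to 21315) and of 9834 FPKM at 1 µM PCB 126 (5715 to 14534), and TTR and FGB fell there (by 1.62 and 1.37 on the log2 scale). In such bulk samples, fewer cells of a type and less RNA per cell cannot be told apart. EPCAM, a biliary marker, had a median of 0 in every group, while the 8 biliary markers together had a median of 374 FPKM in control and of 213 FPKM at 1 µM. The summed medians in control and at 1 µM were 83.7 and 168 FPKM for the 8 mesenchymal markers (COL3A1 fell by 3.07 and COL1A2 had a median of 0), 2.06 and 0.98 FPKM for the 4 endothelial markers (CDH5 had a median of 0) and 9.25 and 8.16 FPKM for the 4 immune markers. The mesenchymal sum does not describe each marker, since the median log2 difference of the 6 tested was -0.053 at 1 µM. Over the dose steps 1 of these 6 was called higher and 2 lower, where 3.78% of all genes were called. The part of these shifts in the members' values was not tested.

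In solvent control the members spanned a wide range of levels. PTGES3 was the most abundant (73.1 ± 16.8 FPKM, SD, n = 5), followed by AHR (64.1 ± 14.5), ARNT2 (6.10 ± 2.15), ARNT (6.01 ± 0.60), TIPARP (4.58 ± 1.52) and AHRR (1.73 ± 0.42). PTGES3 was above AHR in 5 of 5 libraries although the ranges overlapped. ARNT2 and ARNT could not be ordered, since ARNT2 was the higher in 3 of 5 libraries. ARNT was above TIPARP in 5 of 5 libraries with overlapping ranges, and TIPARP was above AHRR in every control library with no overlap. This order changed when assembled transcripts without a gene name, described below, were added. ARNT (12.1 FPKM) was then above ARNT2 (7.43 FPKM) in 5 of 5 libraries with overlapping ranges, and AHRR (4.64 FPKM) and TIPARP (4.58 FPKM) could not be ordered, with AHRR the higher in 2 of 5. In both definitions AHR was above either partner in every control library, with ARNT at 9.85 ± 2.88% of AHR from named transcripts and at 18.9 ± 2.62% with the unnamed ones (SD, n = 5).

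**Figure D1:**
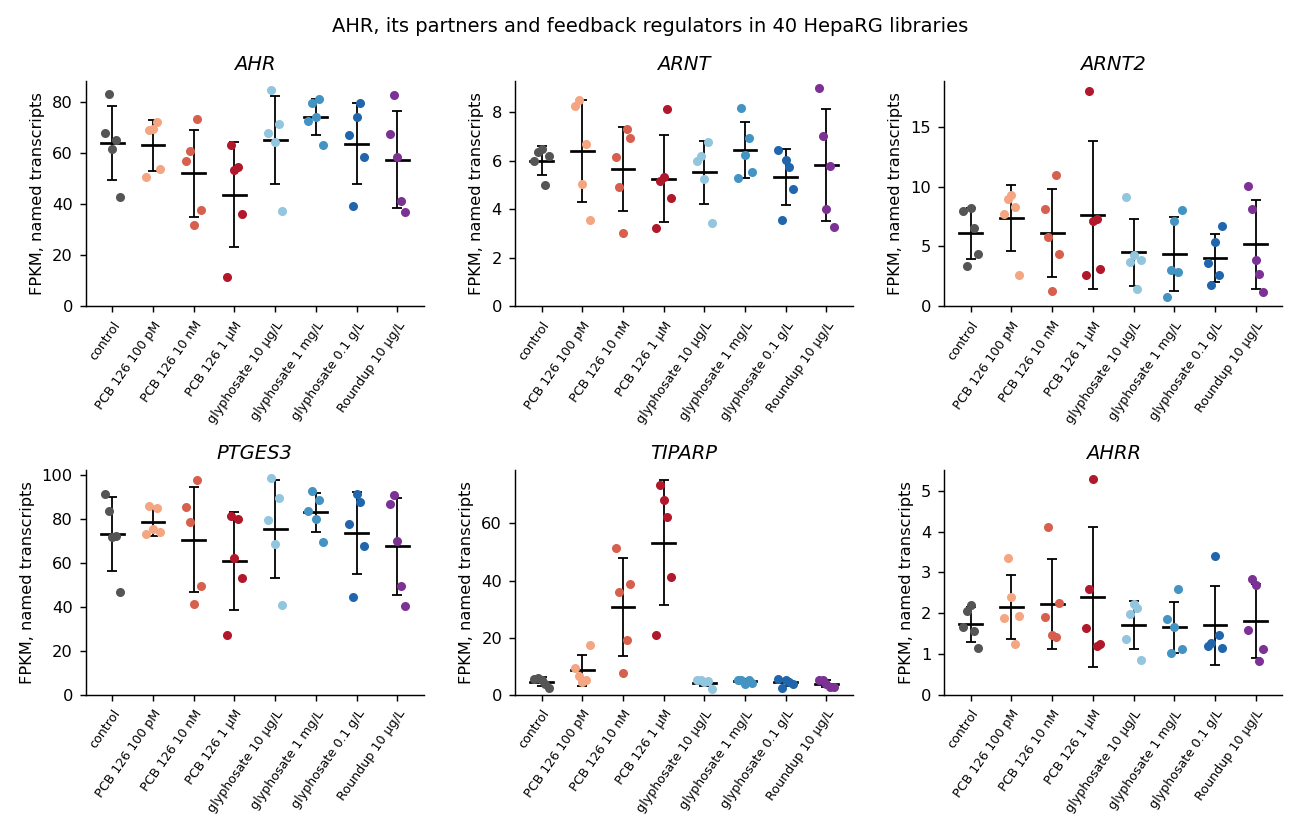
FPKM of the 6 genes in each of the 40 libraries, 1 panel per gene, with a point per library and lines for the group mean and SD (n = 5). TIPARP climbs from a mean of 4.58 FPKM in control to 53.3 FPKM at 1 µM PCB 126 and stays between 3.89 and 4.74 FPKM in the herbicide groups, while the other genes overlap with control in every group.

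The receptor gene AHR is encoded on chromosome 7 (chr7:16916359-17346152, plus strand, GENCODE 44 on GRCh38), and 97.1% of its level came from 1 transcript of 11 exons, ENST00000242057. Its control libraries stood at 68.0, 83.1, 61.6, 64.9 and 42.7 FPKM. At 1 µM PCB 126 they stood at 11.5, 63.0, 53.4, 54.5 and 36.2 FPKM. The ranges overlapped, and the low end of each group was a library with over 30% multiply aligned pairs. The group mean was 63.0 ± 9.86 FPKM with 100 pM, 52.0 ± 17.1 with 10 nM and 43.7 ± 20.5 with 1 µM (SD, n = 5). The fitted log2 difference from control, on the log2(FPKM + 1) scale used for every difference here, was -0.0075 (SE 0.34) at 100 pM, -0.33 at 10 nM and -0.71 at 1 µM (95% interval -1.42 to 0.00037), none of which passed (limma, adjusted p = 1, 0.865 and 0.369). Over the dose steps the slope was -0.24 per step (adjusted p = 0.203). In the fit on all libraries the median of all 9755 genes tested at 1 µM was -0.26, beside -0.71 for AHR. Without the libraries over 30%, of which 5 were in the PCB 126 fit, the AHR value at 1 µM was -0.28 (limma adjusted p = 0.388).

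Of the partner genes, ARNT (chr1:150809713-150876708, minus strand) stayed near 6 FPKM, with means of 6.41 ± 2.12 at 100 pM, 5.67 ± 1.74 at 10 nM and 5.27 ± 1.81 at 1 µM. Its difference from control at 1 µM was -0.20 (95% interval -0.74 to 0.34, limma adjusted p = 0.716). ARNT2 (chr15:80404350-80597933, plus strand) was more variable. Its control libraries held 7.98, 3.40, 8.19, 6.55 and 4.35 FPKM, and those at 1 µM held 2.61, 17.98, 7.15, 7.29 and 3.12 FPKM. The highest and the lowest of these 10 values were both at 1 µM, and the difference of 0.076 (95% interval -0.81 to 0.96) did not pass (limma adjusted p = 0.946).

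The spread of ARNT2 went with how the assembler divided its reads. The deposited tables hold transcripts assembled by StringTie without a gene name, and 3 of these overlap ARNT2. One of them, MSTRG.14026.1 (chr15:80404344-80597930, 20 exons), spans nearly the same bases as the named ENST00000303329 (19 exons). In 18 libraries only the named transcript was above 1 FPKM, in 21 only the unnamed, in 0 both and in 1 neither. The unnamed form was above 1 FPKM in 1 control library, 1 at 100 pM, 3 at 10 nM and 4 at 1 µM, and in 2 to 4 libraries of each herbicide group. Summing by symbol therefore left out the form above 1 FPKM in those 21 libraries.

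With the unnamed transcripts added, a choice made after the values were seen, ARNT2 held 7.98, 10.0, 8.23, 6.57 and 4.35 FPKM in control. At 10 nM it held 14.9, 16.6, 4.91, 11.0 and 13.4 FPKM, and at 1 µM 12.5, 17.98, 19.8, 21.1 and 11.4 FPKM. Every 1 µM library was above every control library, as held for 1% of 10179 genes tested in this definition. Means were 7.43 ± 2.12 (control), 8.74 ± 0.71 (100 pM), 12.2 ± 4.55 (10 nM) and 16.6 ± 4.38 FPKM (1 µM; SD, n = 5). ARNT2 so defined rose at 1 µM by 1.06 (SE 0.27, 95% interval 0.51 to 1.61, limma adjusted p = 0.0192). The two-sided exact permutation test gave an unadjusted p = 0.00794, the smallest that 252 splits allow. Along the dose steps ARNT2 so defined rose by 0.35 per step (limma adjusted p = 0.00643). In this definition 3.66% of genes were called at 1 µM, 6.42% over the dose steps, 0.363% at 10 nM and 2.65% by the F-test across groups. The 1 µM call was lost when control replicate 4 (adjusted p = 0.0593) or 1 µM replicate 3 (0.0528) or 4 (0.0536) was left out. Without the libraries over 30% it was 1.18 (adjusted p = 0.000133). The value of 0.59 at 10 nM did not pass (adjusted p = 0.828).

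The same addition raised ARNT to 12.1 ± 2.88 FPKM in control and 9.37 ± 2.52 FPKM at 1 µM, with the difference of -0.34 not passing (limma adjusted p = 0.508). Within each library, where a scale factor cancels, ARNT2 made up 37.9 ± 2.66% of ARNT and ARNT2 together in control. The share was 42.9 ± 2.05% at 100 pM, 54.4 ± 8.87% at 10 nM and 63.9 ± 5.76% at 1 µM (SD, n = 5). No control library exceeded 41.6% and no 1 µM library was below 55.7%, and without the libraries over 30% the means were 37.99% and 64.4%. The group means with herbicides lay between 39.1% and 44.6%. From named transcripts alone the share was 49.1 ± 10.4% in control and 53.6 ± 14.7% at 1 µM.

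**Figure D2:**
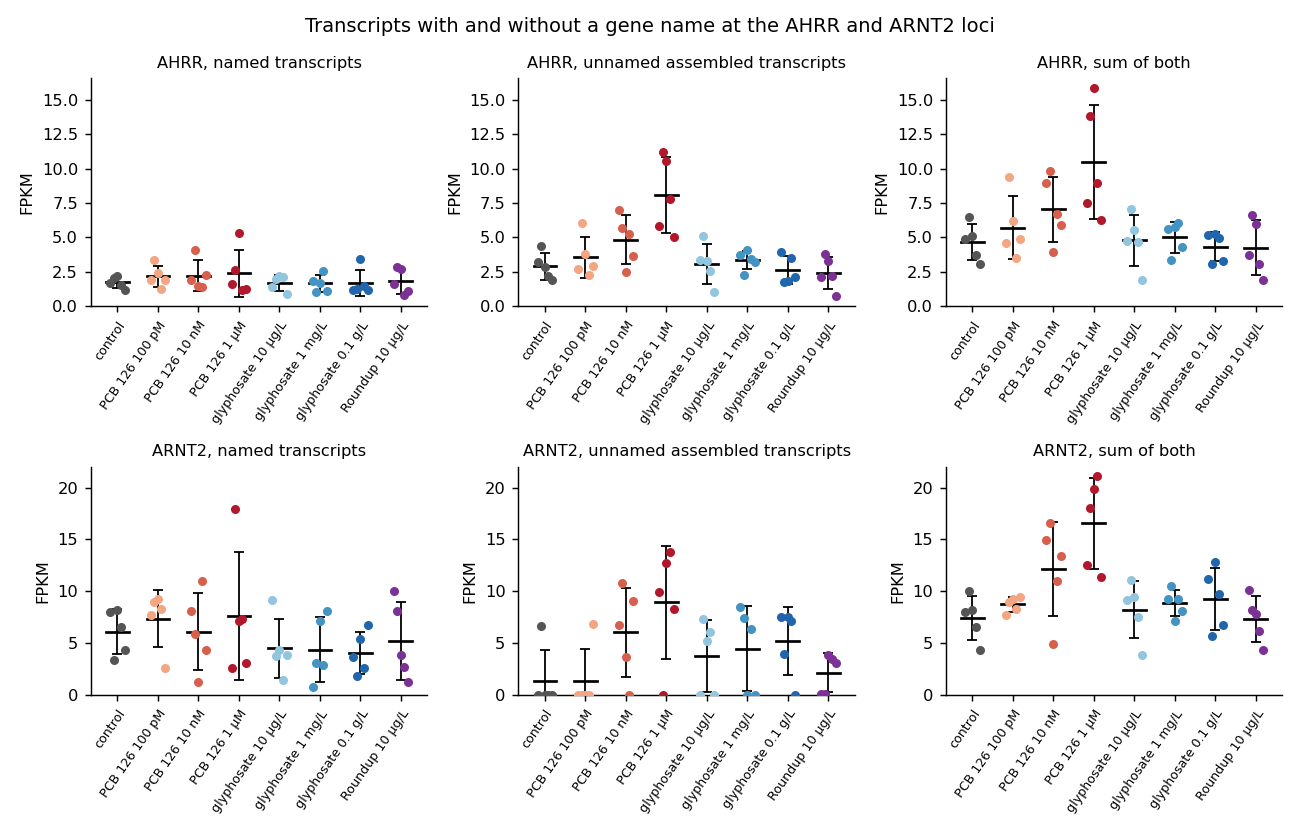
FPKM of AHRR (top) and ARNT2 (bottom) in each of the 40 libraries, from named transcripts, from assembled transcripts without a gene name, and from the sum of both, with lines for the group mean and SD. In the sums the AHRR mean goes from 4.64 FPKM in control to 10.5 FPKM at 1 µM PCB 126 and the ARNT2 mean from 7.43 to 16.6 FPKM, while from named transcripts they go from 1.73 to 2.39 and from 6.10 to 7.63 FPKM.

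The co-chaperone gene PTGES3 (chr12:56663341-56688408, minus strand) encodes p23, which holds HSP90 clients in their ligand-binding state and also has prostaglandin E synthase activity. Its level was 78.5 ± 6.23 FPKM at 100 pM, 70.5 ± 23.9 at 10 nM and 60.8 ± 22.3 at 1 µM, and the lowest library, at 27.1 FPKM, was 1 µM replicate 1, which also had the lowest AHR. The difference at 1 µM was -0.33 (95% interval -0.93 to 0.27, limma adjusted p = 0.606). Without the libraries over 30% it was -0.097 (adjusted p = 0.769), with means of 79.7 FPKM in control (n = 4) and 74.6 FPKM at 1 µM (n = 3). The HSP90 genes also did not pass. HSP90AA1 held 138 ± 40.7 FPKM in control and 129 ± 44.2 at 1 µM, and HSP90AB1 held 246 ± 64.5 and 218 ± 61.4 FPKM. Of the 10 chaperone genes listed, 9 were tested and 0 were called at any dose, with a median difference of -0.14 at 1 µM.

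The feedback gene TIPARP (chr3:156673235-156706770, plus strand) was the only member called from named transcripts. Its control libraries held 5.64, 5.84, 5.39, 3.75 and 2.30 FPKM. At 100 pM they held 9.46, 6.58, 4.37, 5.13 and 17.5 FPKM, at 10 nM 51.3, 36.0, 7.85, 19.4 and 38.9 FPKM, and at 1 µM 20.9, 73.6, 68.3, 62.4 and 41.4 FPKM. Control and 100 pM overlapped, whereas every library at 10 nM and at 1 µM was above every control library, as held for 0.267% and 0.707% of genes tested. Means were 4.58 ± 1.52, 8.62 ± 5.35, 30.7 ± 17.1 and 53.3 ± 21.9 FPKM (SD, n = 5).

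TIPARP rose by 2.32 on the log2 scale at 10 nM (SE 0.42, 95% interval 1.44 to 3.19, 4.98-fold, limma adjusted p = 0.00841) and by 3.21 at 1 µM (95% interval 2.33 to 4.08, 9.22-fold, adjusted p = 4.8e-05). The exact permutation test gave p = 0.00794 at both doses, and these were the only 2 of its 42 tests of the members against control with a p under 0.05. Members called were 1 of 6 at 10 nM, where 0.205% of all genes were called, and 1 of 6 at 1 µM, where 1.87% were. The members were chosen with earlier results of these data known, so these counts are not independent evidence. Without the variance filter TIPARP lost its 10 nM call, as given at the end. The value of 0.68 at 100 pM did not pass (95% interval -0.19 to 1.56, adjusted p = 1). At this dose 0% of genes were called by limma, with 116 at an unadjusted p under 0.05. An ordinary linear model with a term for library size called 0 there. It called 114 genes at 10 nM and 830 at 1 µM, beside 20 and 182 by limma. Along the dose steps the slope was 1.13 per step (SE 0.13, adjusted p = 6.6e-06), in a test that called 3.78% of genes, and the F-test across the 4 groups, which called 1.39%, gave an adjusted p of 0.000103. Without the libraries over 30% the values were 2.48 at 10 nM and 3.50 at 1 µM.

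Between neighbouring doses TIPARP differed by 1.63 from 100 pM to 10 nM (limma adjusted p = 0.399) and by 0.89 from 10 nM to 1 µM (adjusted p = 1.00). Neither passed, and limma called 0% of genes in either comparison, with 558 and 324 at an unadjusted p under 0.05 and 0 by the ordinary linear model. Without the libraries over 30% the first was 1.98 and passed (adjusted p = 0.0376), and it also passed at 2.03 without 10 nM replicate 3, the lowest library of its group (adjusted p = 0.0403). CYP1A1, the classical AhR-induced monooxygenase, had means of 2.33 ± 3.40 FPKM in control, 86.2 ± 133 at 100 pM, 268 ± 113 at 10 nM and 235 ± 108 at 1 µM. At 100 pM, replicate 5 held the highest value of both TIPARP (17.5 FPKM) and CYP1A1 (319 FPKM), and at 10 nM replicate 3 held the lowest of both (7.85 and 92.1 FPKM).

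The order of TIPARP and AHR, whose protein TIPARP modifies, was compared within libraries. TIPARP stood at 7.04 ± 1.49% of AHR in control (range 5.38 to 8.75%), at 14.8 ± 11.1% with 100 pM, at 60.8 ± 35.8% with 10 nM and at 131 ± 28.9% with 1 µM (range 114 to 182%). Without the libraries over 30% it was 7.46% in control, 58.7% with 10 nM and 120% with 1 µM. It exceeded AHR in 5 of 5 libraries at 1 µM, in 1 of 5 at 10 nM and in 0 of the others. Of its level, 93.8% came from ENST00000295924 (6 exons), with means of 4.503, 8.17, 30.1 and 48.6 FPKM from control to 1 µM. This was the only 1 of 14 member transcripts tested that was called at 1 µM (limma on transcripts, difference 3.11, adjusted p = 0.00157), where 0.552% of all transcripts were called. At 10 nM the transcript's difference was 2.31 (adjusted p = 0.0695), where 0.0614% were called.

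**Figure D3:**
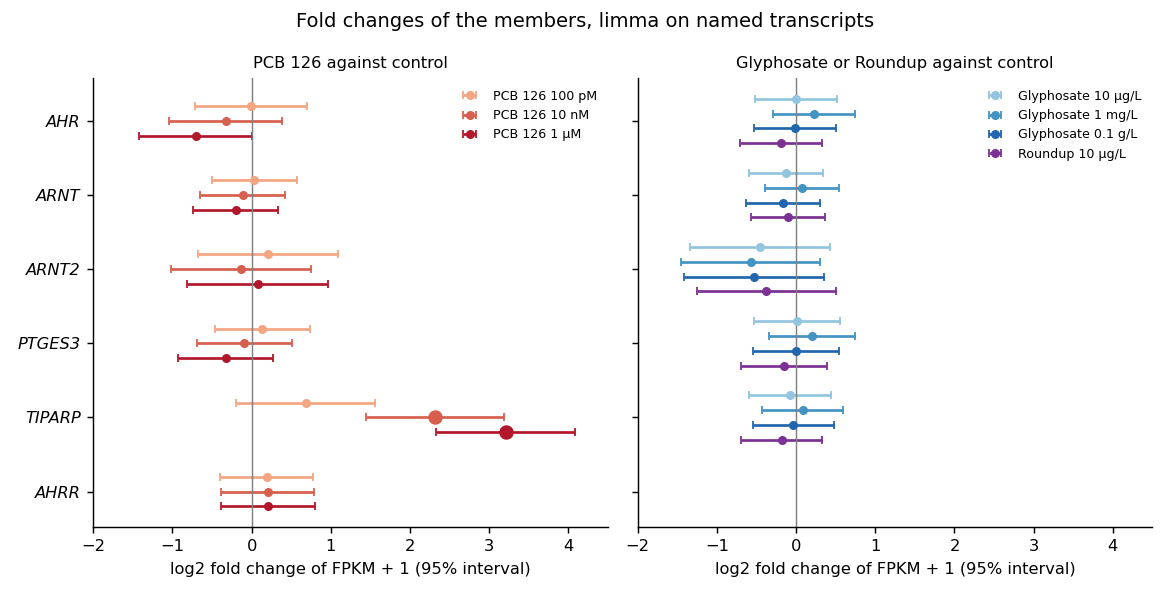
Fitted log2 fold change of FPKM + 1 against control for each gene, with bars for the 95% interval, at the PCB 126 doses (left) and with glyphosate or Roundup (right, where AHRR did not pass the variance filter); larger points are those called. TIPARP at 10 nM (2.32) and 1 µM (3.21) lies clear of 0; the intervals of the other genes cross 0.

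AHRR (chr5:321714-438291, plus strand) was the scarcest member by named transcripts. Its group means were 1.73 ± 0.42 FPKM in control, 2.16 ± 0.78 at 100 pM, 2.23 ± 1.10 at 10 nM and 2.39 ± 1.71 at 1 µM (SD, n = 5). The groups overlapped, and the differences of 0.19, 0.20 and 0.21 did not pass (limma adjusted p = 1, 0.865 and 0.736), nor did the slope of 0.063 per step (adjusted p = 0.655). The 1 µM value rested on replicate 3 (5.28 FPKM), and was -0.047 without it. The named sum came mostly from 3 transcripts. These were ENST00000510910 (2 exons, 569 bases), ENST00000507048 (2 exons, 2180 bases) and ENST00000506456 (7 exons, 2350 bases). They averaged 0.836, 0.559 and 0.441 FPKM over the 40 libraries, while the long named form ENST00000316418 averaged 0.0127 FPKM.

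Of the transcripts overlapping AHRR, 11 were named and 13 unnamed. The unnamed transcripts alone held 3.21, 4.401, 2.88, 2.19 and 1.90 FPKM in control and 5.83, 11.2, 10.6, 7.78 and 5.06 FPKM at 1 µM. All 5 libraries at 1 µM were above all 5 controls, as held for 0.887% of 3495 genes with such transcripts, whereas the sum with the named transcripts overlapped. One of the 13, singled out after its values were seen, MSTRG.32606.18 (chr5:321725-438692, 11 exons, 6057 bases), starts within a few bases of the reference AHRR transcript ENST00000684583 (chr5:321714-438285, 11 exons, GENCODE 44), which itself has no row in the tables used. This transcript was listed at 0 in 5 of 5 control libraries. It held 0.014, 0.025, 0, 0 and 0.059 FPKM at 100 pM, 1.57, 0.081, 0.028, 0.029 and 1.73 FPKM at 10 nM, and 1.13, 4.64, 1.45, 2.73 and 0.118 FPKM at 1 µM. With glyphosate or Roundup it did not exceed 0.141 FPKM. It was above every control library at 10 nM and 1 µM, as held for 0.269% and 0.642% of 21181 transcripts tested. With all controls at 0, any value above 0 meets this, and the transcript passed the variance filter only through these doses. The separation is therefore no support for a rise. The transcript's difference at 1 µM did not pass among all transcripts (1.39, limma adjusted p = 0.134).

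With the unnamed transcripts added, again a choice made after the values were seen, AHRR had means of 4.64 ± 1.31 FPKM in control, 5.71 ± 2.26 at 100 pM, 7.05 ± 2.37 with 10 nM and 10.5 ± 4.15 with 1 µM. The 1 µM libraries held 7.46, 13.8, 15.8, 8.98 and 6.30 FPKM, and replicate 5 lay below the highest control library (6.45 FPKM). AHRR so defined rose at 1 µM by 0.98 (SE 0.28, 95% interval 0.41 to 1.55, limma adjusted p = 0.0402, unadjusted exact permutation p = 0.0159). It rose by 0.32 per dose step (limma adjusted p = 0.0173). The value of 0.49 at 10 nM did not pass (adjusted p = 0.828). The 1 µM call was lost in 7 of the fits that left out 1 library (control replicate 1, 3, 4 or 5, or 1 µM replicate 2, 3 or 4), with adjusted p up to 0.118, and held without the libraries over 30% (1.19, adjusted p = 0.00814). The slope was lost without 1 µM replicate 3 (adjusted p = 0.0528). The F-test across the 4 groups did not call AHRR (adjusted p = 0.162) or ARNT2 (0.0803) in this definition. As a percentage of AHR, AHRR so defined was 7.22 ± 0.93% in control, 9.09 ± 3.08% with 100 pM, 13.8 ± 3.00% with 10 nM and 30.1 ± 20.2% with 1 µM, the last including 1 library at 65.0%. That library is among those over 30%, and without them the mean was 7.24% in control, 13.7% with 10 nM and 22.7% with 1 µM. The assembler placed AHRR and its neighbour PDCD6 in a single locus, so reads could be divided between them. PDCD6, a calcium-binding protein gene, held 24.6 ± 6.59 FPKM in control and 23.1 ± 7.25 at 1 µM and was not called (difference -0.11, adjusted p = 0.864).

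With glyphosate or Roundup, none of the members was called in any herbicide comparison. AHR means were 65.1 ± 17.4 FPKM at 10 µg/L glyphosate, 74.02 ± 7.14 at 1 mg/L, 63.7 ± 15.7 at 0.1 g/L and 57.4 ± 18.9 with Roundup. TIPARP means were 4.27 ± 1.29, 4.74 ± 0.68, 4.38 ± 1.21 and 3.89 ± 1.24 FPKM in the same order, and its share of AHR stayed between 5.25% and 8.30% in all 20 libraries. PTGES3 lay between 67.4 and 82.9, ARNT between 5.32 and 6.44, ARNT2 between 4.04 and 5.18 and AHRR between 1.65 and 1.81 FPKM as group means. Over 25 member tests, namely 4 groups against control and Roundup against glyphosate at 10 µg/L for the 5 members that passed the filter on low variance, differences ran from -0.57 (ARNT2) to 0.23 (AHR), and their 95% intervals lay between -1.45 and 0.96. The lowest adjusted p was 0.902 (limma). AHRR did not pass this filter, and its unadjusted exact permutation p against control was at least 0.738. Across these comparisons limma called 0% of genes, with 84 to 165 at an unadjusted p under 0.05 among 9533 tested, and 0 by the ordinary linear model.

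Other genes of the pathway were read in the same fit. Of 10 genes listed as driven by AhR, 9 were tested, against 7 in the herbicide fit. CYP1A2 and ALDH1A3, at 0.98 and 0.64 FPKM in control, passed the variance filter only with the PCB 126 groups, where they were high. The count and the medians below include both, so the filter favoured genes that rose. At both 10 nM and 1 µM 5 rose and 0 fell, where 0.144% and 0.646% of all genes were called higher. The median difference of the 9 tested was 1.52 at 10 nM and 1.93 at 1 µM, beside -0.21 and -0.26 over all genes. The paper already names the 5 that rose among genes affected by PCB 126 in these libraries, so the count is not independent evidence. CYP1A1 rose by 6.80 at 10 nM and 6.61 at 1 µM (limma adjusted p = 0.000411 and 7.4e-05), and CYP1A2, its neighbour with a preference for arylamines, by 6.73 and 6.16. ALDH3A1 rose by 1.52 and 1.93 and ALDH1A3, a retinaldehyde dehydrogenase, by 1.77 and 2.19. The fifth, CYP1B1, named after its values were seen, rose by 2.89 and 2.51. Others of the list did not rise so, here 2 also named after their values were seen. NFE2L2 differed by 0.33 and 0.18 and was not called (limma adjusted p = 0.865 and 0.819). NQO1 held 2.58 ± 1.06 FPKM in control, 2.60 ± 0.99 at 10 nM and 2.18 ± 0.63 at 1 µM. TIPARP, ALDH1A3 and ALDH3A1 differed from control by more at 1 µM than at 10 nM in the fitted values, and CYP1A1, CYP1A2 and CYP1B1 by less, although none of these steps between doses passed a test.

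**Figure D4:**
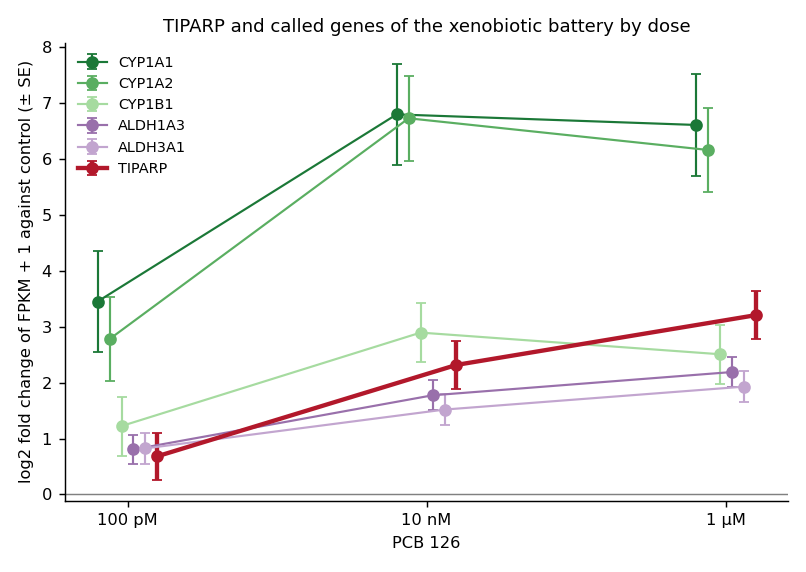
Fitted log2 fold change of FPKM + 1 against control (y axis, bars ± SE) at the 3 PCB 126 doses (x axis) for TIPARP and the 5 called genes among those listed as driven by AhR. TIPARP goes from 0.68 to 2.32 and 3.21, while CYP1A1 and CYP1A2 stand at 6.80 and 6.73 at 10 nM and at 6.61 and 6.16 at 1 µM.

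Most of the remaining lists held no call against control. None was called against control at any PCB 126 dose among 7 tested of 15 other bHLH-PAS genes (relatives of AHR and ARNT such as HIF1A), 10 of 10 coactivators, 10 of 10 corepressor and turnover genes, 11 of 14 genes of mono-ADP-ribosylation (the enzyme class of TIPARP and the hydrolases that reverse it) and 5 of 8 neighbouring genes, nor was any of those tested in the herbicide fit called there. Their medians at 1 µM were 0.0068, -0.48, -0.21, -0.39 and -0.27. Over the dose steps 1 gene of these lists was called, in a test that called 3.78% of all genes. It was the mono-ADP-ribosyltransferase PARP8, which fell by 0.32 per step (limma adjusted p = 0.0241) and was named after its values were seen. PARP8 means were 7.33 FPKM in control, 4.55 at 100 pM, 3.24 at 10 nM and 3.34 at 1 µM. Its herbicide group means were also below control, at 5.01 FPKM or less, although not called. The slope therefore does not show a fall particular to PCB 126. Of 5 prostaglandin genes only PTGES2 was tested, and it fell at 1 µM by 1.61 (limma adjusted p = 0.042), from 7.74 ± 4.14 to 2.08 ± 2.05 FPKM. PTGES2 is a membrane-associated prostaglandin E synthase unrelated to PTGES3. The 6 members had a median of 0.16 at 100 pM, -0.10 at 10 nM and -0.063 at 1 µM, beside 0.070, -0.21 and -0.26 over all genes.

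Across the 40 libraries, which share groups and library scale, the genes closest to TIPARP among 9732 compared were CYB561A3 (Pearson r = 0.986 on log2(FPKM + 1)), MB21D2 (0.981) and SERPINB2 (0.978). For AHR they were EMB (0.989), WASL (0.987) and SH3BGRL (0.987), and for PTGES3 KDELR2 (0.987), UHMK1 (0.987) and PRKACB (0.985). ARNT (ZNF561 0.788, DOLPP1 0.778, DHCR7 0.776) and ARNT2 (PAAF1 0.668, ASL 0.660, PFN1 0.650) had no gene as near. AHRR did not pass the variance filter over the 40 libraries. These values describe the libraries and were not tested.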

How the data were processed

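RNA was sequenced from 40 HepaRG libraries. The authors aligned reads with HISAT2 to GRCh38, assembled and quantified transcripts with StringTie on Ensembl release 89 and exported them with Ballgown. The deposited tables hold FPKM per transcript (234960 transcripts, 35782 without a gene name). Some deposited columns, recorded as a score for this reason alone, hold FPKM with a few values below 0, and these 10 values (4 in the PCB 126 table, 6 in the herbicide table) were set to 0. Read counts are not in the tables, so no counting interval is given. FPKM were summed per gene name, log2(FPKM + 1) was tested with limma 3.58.1 (R 4.3.3) in 1 fit per table (20 and 25 libraries, the same 5 controls), for genes with a variance of FPKM above 1, with Benjamini-Hochberg adjustment over all genes at 0.05. Single values were tested by two-sided exact permutation, with p-values left unadjusted although an adjustment over the member tests had been planned. Unnamed transcripts were assigned by overlap (18624 of 35782). The fits were tested on simulated data. Members and lists were chosen with earlier results of these data known. Named were all members, up to 4 called genes per list by smallest p, chaperones as levels (1 of these is not reported here) and the 3 most alike genes per member. Alternatives covered pseudocount, filters, scaling, quantile normalization, locus sums, libraries over 30% multiply aligned, leave-one-out and a replicate block. Same-numbered libraries were not taken as paired.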

Additional observations from a re-analysis of the deposited data

Results flagged for a closer look

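Among 48 gene-by-group sets of 5 libraries, 3 held a library far from the other 4, and chance gives about 1 in 20. ARNT2 at 100 pM PCB 126 had 1 low library (replicate 5, 2.59 FPKM, against 7.74 to 9.29 in the others); in that library the unnamed ARNT2 transcripts held 6.81 FPKM, and the sum of both was 9.40 FPKM. AHRR at glyphosate 0.1 g/L had 1 high library (replicate 3, 3.41 FPKM). TIPARP at glyphosate 10 µg/L had 1 low library (replicate 5, 2.02 FPKM), which is among those with over 30% multiply aligned pairs. Transcripts without a gene name that overlap AHRR, which the sums by symbol leave out, had a mean of 8.09 FPKM at 1 µM PCB 126, above every control library (1.90 to 4.401 FPKM).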

How the results depend on the processing

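TIPARP kept its direction at 10 nM and 1 µM in every alternative run, and its call in all but 1: without the variance filter its 10 nM adjusted p was 0.177 and 0 members were called there. Leaving out 1 library at a time moved it from 2.08 to 2.72 at 10 nM and from 3.03 to 3.50 at 1 µM. Members called at 1 µM rose from 1 to 2 with sums per assembled locus and to 3 with unnamed transcripts, and over the dose trend likewise from 1 to 2 and to 3. Between 100 pM and 10 nM the count went from 0 to 1 with locus sums, with all 40 libraries in the fit and without the libraries over 30%, and from 0 to 1 over the leave-one-out fits. Of the 42 exact tests, 2 had an unadjusted p under 0.05, 6 with 75th-percentile scaling (also AHR at 1 µM PCB 126 and at glyphosate 1 mg/L, and PTGES3 at glyphosate 1 mg/L and 0.1 g/L) and 4 with unnamed transcripts. Directions that turned, all of values not called, were AHR at 100 pM (0.053 with 75th-percentile scaling, leave-one-out -0.14 to 0.093), ARNT at 1 µM (0.038 with quantile normalization, 0.035 without the libraries over 30%), ARNT2 at 1 µM (leave-one-out -0.27 to 0.32) and AHRR from named transcripts (leave-one-out -0.047 to 0.33 at 1 µM, -0.0054 to 0.10 for the trend); the cause was not tested. With unnamed transcripts, AHRR at 1 µM ranged from 0.82 to 1.13 and ARNT2 from 0.91 to 1.18 over the leave-one-out fits, and AHRR lost its call with a pseudocount of 0.1 (adjusted p = 0.0549). Added unnamed transcripts moved 21 of 48 group levels by more than 1 SD. Replicate numbers were not taken as pairs, although each of the 5 runs of library numbers holds 1 library of every group. In their deviations 7 of 30 same-numbered pairs with PCB 126 and 19 of 50 with herbicides correlated above 0.1. The median r was 0.0634 and 0.0688, against -0.018 and -0.019 between numbers. Of the libraries, 14 of 20 and 18 of 25 correlated best with their own number, a hint of shared variation within runs. Whether a run is a batch is not stated. With a replicate block 1 member was called at 10 nM and 1 at 1 µM, as without it, while calls over all genes went from 20 to 37 and from 182 to 357. Over all genes the 1 µM count was 592 (247 higher) under the 75th-percentile setting and 1085 (532 higher) when quantiles were normalized, beside 182 (63 higher). Read totals were not used here, so what depth limits was not assessed.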
